A study of Mus musculus with 12 samples.

Results

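Expression of the BCL2 family of apoptosis regulators in cultured mouse pancreatic cancer cells was read from 29 probe sets for 9 genes, out of 45101 probe sets and 18193 genes on the array. A probe set was taken when its annotation gave exactly 1 gene symbol and that symbol was one of the 10 on the list, Bcl2, Bcl2l1, Mcl1, Bax, Bak1, Bid, Bad, Bcl2l11, Bbc3 and Pmaip1. Mcl1 had 6 such probe sets, Bcl2 and Bcl2l11 had 5 each, Bcl2l1 had 4, Bid had 3, Bak1 and Bad had 2 each, and Bbc3 and Pmaip1 had 1 each. Bax was not analysed here.

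Proteins of this family decide at the outer membrane of the mitochondrion whether a stressed cell dies. Bcl2, BCL-XL (the product of Bcl2l1) and Mcl1 block death by holding the pore-forming proteins Bak1 and Bax, and the BH3-only proteins Bid, Bad, Bim (Bcl2l11), Puma (Bbc3) and Noxa (Pmaip1) relieve that block or act on the pore formers themselves. Open pores let cytochrome c escape, which starts the caspases. Wild-type p53 is known to switch on Bbc3 and Pmaip1, and p53 is what the cells compared here were chosen to differ in.

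The 12 arrays fell into 4 groups of 3. The mt-CCs were primary cancer cells from tumors of mice with Pdx1-Cre, a mutant K-ras allele and a Trp53 allele with the R172H mutation, both alleles being switched on by the Cre. The fl-CCs came from tumors with the same Cre and K-ras alleles and a floxed Trp53 allele, and their label calls them null for Trp53. The other groups were fl-CCs transfected with human p53 R175H, the human equivalent of the mouse mutation, and fl-CCs transfected with the empty vector (EV), and both were kept in G418 at 0.6 mg per ml. All cells were grown in DMEM with 10% serum and harvested at 60% confluency. The Pdx1 promoter drives the Cre in the pancreatic lineage from its progenitors onward. Each group was a single line, so p53 status and any other difference between the mt-CC and fl-CC lines cannot be told apart, and whether the transfected cells were a clone or a pool is not given in the sources used here.

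Values are log2 expression values from robust multichip average (RMA), on which a difference of 1 is a 2-fold change, and values under 5 are taken as near background. A difference counts as called where limma gave an adjusted p (Benjamini-Hochberg, over 45037 probe sets) no higher than 0.05. Errors of levels are SD over 3 arrays and errors of differences are SE. Where a gene has several probe sets, the one with the highest mean over the 12 arrays is called its brightest, and levels are never set against those of another probe set.

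The arrays had the same median of 5.59, and arrays of a group correlated at 0.994 to 0.996. The mt-CC arrays correlated with those of the other groups at 0.960 to 0.963, whereas the 3 groups of fl-CC origin correlated among themselves at 0.983 to 0.990. Of 8 epithelial marker genes, 7 were called lower in mt-CCs, including Cldn4 at levels under 5 in both lines, and the log2 of their summed level was 14.98 to 15.08 in mt-CCs and 15.67 to 15.74 in fl-CCs. The largest falls were in Muc1 (-5.47), Krt7 (-4.45), Epcam (-2.90) and Cdh1 (-2.24). Krt8 (-0.36) and Krt18 (-0.34) fell less, and Krt19 was not called. Of 10 fibroblast marker genes, 5 were higher in mt-CCs, where the summed level was 9.60 to 9.78 against 7.77 to 8.21 in fl-CCs, and the other 5 (Lum, Pdpn, Postn, Fap and Thy1) lay under 5 in both lines. Among the higher ones, Col1a2 and Dcn averaged only 4.67 and 4.96 in mt-CCs and lay under 5 in all fl-CC arrays. Of 8 leukocyte marker genes, Ptprc, Laptm5, Tyrobp, Cd3e and Cd79a were under 5 in every group, and the other 3 were not. Cd53 was at 7.604 in mt-CCs, against 8.22 in fl-CCs (called lower), and at 9.27 with p53 R175H, against 8.78 with EV (not called). Coro1a was called higher in mt-CCs (6.43, against 5.93 in fl-CCs) and with p53 R175H (6.11, against 5.61 with EV), and Fcer1g lay between 5.08 and 5.30 on average in each group. The summed leukocyte level was 8.56 to 8.79 in mt-CCs and 8.88 to 8.99 in fl-CCs, and 9.46 to 10.07 with p53 R175H and 9.20 to 9.34 with EV. The summed epithelial level was 15.44 to 15.46 with p53 R175H and 15.62 to 15.69 with EV, and the fibroblast level 8.35 to 8.41 with p53 R175H and 8.19 to 8.31 with EV. The part that these shifts of marker genes have in the differences of family members was not tested. Trp53 itself was not analysed here.

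Between mt-CCs and fl-CCs, 13 of the 29 probe sets differed, 7 higher and 6 lower in mt-CCs, which is 44.8% of them beside 30.7% of all probe sets tested (15.4% higher and 15.3% lower). The noxa gene Pmaip1 was far lower in mt-CCs, the antiapoptotic Bcl2 was higher and Bcl2l1 lower, and the BH3-only gene Bad was higher. By brightest probe set, Bcl2, Bcl2l1, Bad and Pmaip1 differed, 4 of 9 genes (44.4%, beside 36.0% of all genes, 18.3% higher and 17.7% lower). By the probe set with the smallest adjusted p, which favours genes with many probe sets, 8 of 9 genes differed (88.9%, beside 43.3% of all genes). Bid was among these 8 only through 1447873_x_at, which lay under 5 in both lines and is also among the 13 probe sets. The median absolute difference was 0.42 over the 29 probe sets and 0.21 over all probe sets. With each gene taken once, by its brightest probe set, it was 0.21 over the 9 genes and 0.22 over all genes. When the arrays were centred on housekeeping genes, every difference between mt-CCs and fl-CCs, over all probe sets, moved up by 0.09 and the split became 9 higher and 4 lower. The split of all probe sets under this centring is not given here.

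**Figure D1:**
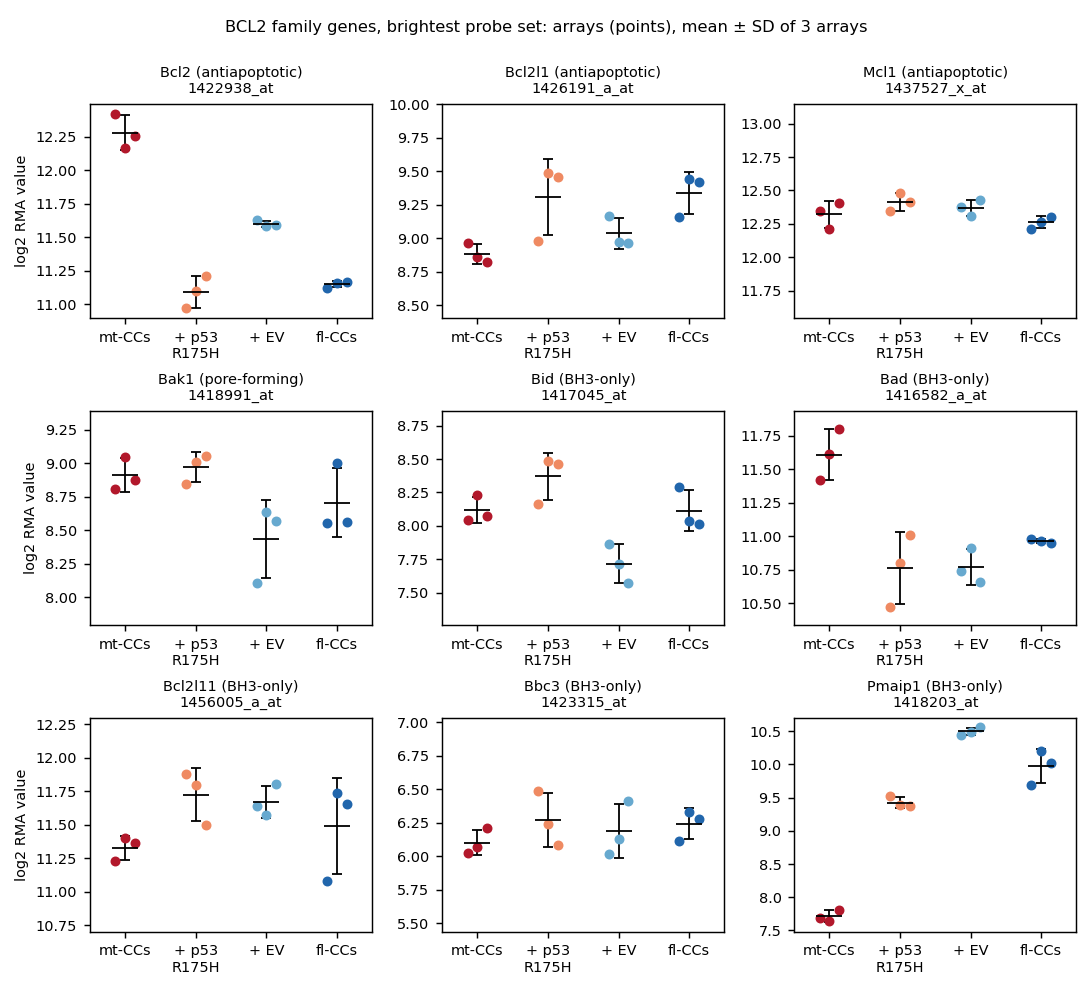
Log2 RMA value of the 9 measured BCL2 family genes at their brightest probe set, with each of the 3 arrays of mt-CCs, fl-CCs + p53 R175H, fl-CCs + EV and fl-CCs as a point and the mean ± SD as a bar, on a scale of its own in each panel. Pmaip1 lay between 7.64 and 7.81 in mt-CCs, below every array of the other groups, and Bcl2 lay between 12.17 and 12.42 in mt-CCs, above every array of the other groups.

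Promoter sequences are shown for Bcl2 and Bad, which were higher in mt-CCs at the brightest probe set, and for Bcl2l1, which was lower. The RefSeq table of promoters (GRCm38.p6, from 250 bases before each start to 50 after it) held 14 windows for 8 of the 9 measured genes, Pmaip1 not among them. A GC box (GGGCGG on either strand), the element bound by Sp1, was found in 9 of these 14 windows and in 35.7% of the 32851 promoters in the table. These 9 windows belonged to 6 of the 8 genes, and Bbc3 has windows that overlap, so that some boxes count more than once. Of the 2 windows of Bad, only that printed below held a GC box. An NF-kB site, searched by its usual consensus on both strands, was found in 2 of the 14 windows, 1 of Bcl2l1 and 1 of Bbc3, and in 6.93% of all promoters. Capitals mark GC boxes in Bcl2 (7, minus strand, chr1:106714291-106714540) and in Bad (3, plus strand, chr19:6941611-6941860), each printed over the 250 bases before its start, and the NF-kB site in 30 bases of Bcl2l1 (minus strand, chr2:152830938-152830967).
Bcl2: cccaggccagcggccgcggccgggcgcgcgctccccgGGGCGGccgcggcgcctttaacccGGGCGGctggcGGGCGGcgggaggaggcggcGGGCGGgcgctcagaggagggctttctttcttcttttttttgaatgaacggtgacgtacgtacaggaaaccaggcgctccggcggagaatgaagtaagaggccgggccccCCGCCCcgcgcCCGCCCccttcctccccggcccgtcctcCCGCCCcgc
Bad: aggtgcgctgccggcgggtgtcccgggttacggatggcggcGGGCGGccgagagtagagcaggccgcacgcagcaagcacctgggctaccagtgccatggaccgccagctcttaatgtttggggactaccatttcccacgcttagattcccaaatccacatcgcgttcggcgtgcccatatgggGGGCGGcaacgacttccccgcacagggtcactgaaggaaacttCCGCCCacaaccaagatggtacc
Bcl2l1: tgtttgtgGGGGGTCTCCagcatacgcctc
A p53-binding decamer and an AP-1 site (TGANTCA on either strand) were found in none of the 14 windows and in 8.36% and 7.81% of all promoters. No GC box was found in the windows of Bcl2l1 or Bak1. These matches describe the letters of a short window only, and no binding was measured.

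Bcl2, the founding inhibitor of the mitochondrial pathway, was higher in mt-CCs. At the brightest probe set (1422938_at) its level was 12.42, 12.17 and 12.26 in the mt-CC arrays, against 11.12, 11.16 and 11.16 in the fl-CC arrays. The difference was 1.13 ± 0.09 (adjusted p = 1.13e-06), and no array of one line reached the range of the other. At 1437122_at the level was 7.43, 7.52 and 7.33 in mt-CCs and 5.99, 6.28 and 6.39 in fl-CCs, a difference of 1.21 ± 0.11, and at 1457687_at it was 10.27, 10.48 and 10.36 in mt-CCs and 9.28, 9.15 and 9.40 in fl-CCs, a difference of 1.09 ± 0.10. These 3 probe sets thus gave differences of like size, with no overlap between the lines. The fourth probe set (1440770_at), close to background, gave 0.46 ± 0.30 with overlapping arrays (adjusted p = 0.299), and the last (1443837_x_at) lay under 5 in both lines, so no difference is given for it.

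Bcl2l1, which encodes the inhibitor BCL-XL, went the other way. At its brightest probe set (1426191_a_at) the level was 8.96, 8.86 and 8.82 in mt-CCs, against 9.16, 9.44 and 9.42 in fl-CCs, a difference of -0.46 ± 0.14 (adjusted p = 0.0239). The arrays did not overlap, but the call was lost when any 1 of mt-CC replicates 2 and 3 or fl-CC replicates 2 and 3 was left out (differences of -0.41 to -0.45), and with centring on housekeeping genes (-0.37). At 1420887_a_at the level was 8.28, 8.25 and 8.16 in mt-CCs, against 8.74, 8.996 and 8.97 in fl-CCs (-0.67 ± 0.12, adjusted p = 0.00123), and at 1420888_at it was 7.69, 7.95 and 7.90 in mt-CCs, against 8.35, 8.46 and 8.29 in fl-CCs (-0.52 ± 0.09, adjusted p = 0.000893). Both of these put every mt-CC array below every fl-CC array, and 1426050_at was under 5 in every group.

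Mcl1, a short-lived inhibitor that binds Noxa and Bim, was called at 1 of its 6 probe sets. Its brightest probe set (1437527_x_at) was at 12.35, 12.21 and 12.41 in mt-CCs and at 12.22, 12.27 and 12.30 in fl-CCs, and the difference of 0.06 had a 95% interval of -0.12 to 0.24. The called probe set was 1448503_at, with 10.79, 10.91 and 11.04 in mt-CCs against 11.12, 11.26 and 11.26 in fl-CCs (-0.30 ± 0.09, adjusted p = 0.0218). The other 5 differed by -0.16 to 0.11.

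Bak1, the pore former, gave an answer that depended on the probe set. At 1425716_s_at it was at 9.20, 9.04 and 9.10 in mt-CCs, against 8.65, 8.68 and 8.63 in fl-CCs, a difference of 0.46 ± 0.09 (adjusted p = 0.00266). At the brightest probe set (1418991_at) it was at 8.81, 9.05 and 8.88 in mt-CCs and at 8.56, 9.001 and 8.56 in fl-CCs, so that the lines overlapped, and the difference of 0.21 had an interval of -0.14 to 0.55.

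Pmaip1 (1418203_at), which encodes Noxa, showed the largest difference of the 29 probe sets. Its level was 7.69, 7.64 and 7.81 in mt-CCs, against 9.69, 10.20 and 10.03 in fl-CCs. The difference was -2.26 ± 0.12 (adjusted p = 2.26e-08), with the highest mt-CC array well under the lowest fl-CC array. Bbc3 (1423315_at), which encodes Puma and like Pmaip1 is a target of wild-type p53, was at 6.03, 6.07 and 6.21 in mt-CCs and at 6.11, 6.33 and 6.28 in fl-CCs. The arrays of Bbc3 overlapped, and its difference of -0.14 had an interval of -0.42 to 0.14.

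Bad, a BH3-only protein that binds Bcl2 and BCL-XL and is silenced by phosphorylation, was higher in mt-CCs at both probe sets. At 1416582_a_at it was at 11.42, 11.61 and 11.80 in mt-CCs, against 10.98, 10.96 and 10.95 in fl-CCs, a difference of 0.65 ± 0.14 (adjusted p = 0.00318). At 1416583_at it was at 10.34, 10.20 and 10.35 in mt-CCs, against 9.53, 9.68 and 9.58 in fl-CCs, a difference of 0.70 ± 0.09 (adjusted p = 6.22e-05). The lines did not overlap at either probe set.

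Bid, which links death receptors to the mitochondrion once caspase-8 has cut it, was at 8.04, 8.23 and 8.08 in mt-CCs and at 8.29, 8.04 and 8.02 in fl-CCs at its brightest probe set (1417045_at), where the arrays overlapped and the difference of 0.00 had an interval of -0.26 to 0.26. The second (1448560_at) gave 0.33 ± 0.14 (adjusted p = 0.0897), and 1447873_x_at was called lower but lay under 5 in both lines. Bcl2l11, which encodes Bim, was called at 1 of its 5 probe sets. At 1435448_at it was at 10.62, 10.60 and 10.78 in mt-CCs, against 9.83, 10.40 and 10.33 in fl-CCs (0.48 ± 0.13, adjusted p = 0.0151). The brightest (1456005_a_at) gave -0.16 ± 0.16, of the opposite sign, with 11.23, 11.40 and 11.36 in mt-CCs and 11.08, 11.74 and 11.65 in fl-CCs. The fl-CC array of replicate 1 was the lowest of its group at both, and without it the brightest probe set was called lower in mt-CCs, at -0.37. At the other 3 probe sets of Bcl2l11 the differences were 0.42 (1426334_a_at), 0.12 (1435449_at) and 0.09 (1456006_at), none of them called.

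In fl-CCs with p53 R175H, 8 of the 29 probe sets differed from EV cells, 3 higher and 5 lower, which is 27.6% of them beside 20.3% of all probe sets (10.2% in each direction). Without EV replicate 1, 5 were called. By either way of choosing a probe set 4 of 9 genes differed (44.4%, beside 25.1% of all genes by brightest, 13.0% higher and 12.1% lower, and 30.4% by smallest adjusted p). Pmaip1 and Bcl2 were lower with p53 R175H, and Bid and Bak1 were higher.

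Pmaip1 was at 9.52, 9.39 and 9.37 with p53 R175H, against 10.44, 10.49 and 10.56 with EV, a difference of -1.07 ± 0.12 (adjusted p = 6.31e-05). The groups lay about a log2 unit apart and each varied little. Bcl2 was at 10.97, 11.10 and 11.21 with p53 R175H, against 11.63, 11.59 and 11.59 with EV, a difference of -0.51 ± 0.09 (adjusted p = 0.0018). It was also lower at 1437122_at (-0.58 ± 0.11) and 1457687_at (-0.38 ± 0.10), so at each of these 3 probe sets Bcl2 was higher in mt-CCs, against fl-CCs, and lower with p53 R175H, against EV. A further called Bcl2 probe set (1443837_x_at) lay under 5 in both groups.

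Bid was at 8.17, 8.48 and 8.46 with p53 R175H, against 7.87, 7.72 and 7.57 with EV (1417045_at), a difference of 0.65 ± 0.12 (adjusted p = 0.00215). At 1447873_x_at it was at 5.53, 5.03 and 5.40 with p53 R175H and under 5 in all EV arrays, so at least 0.32 higher (adjusted p = 0.0424), and at 1448560_at the difference was 0.24 ± 0.14 (adjusted p = 0.263). Bak1 was at 8.85, 9.01 and 9.06 with p53 R175H, against 8.10, 8.63 and 8.57 with EV at its brightest probe set, a difference of 0.54 ± 0.16 (adjusted p = 0.0307). That call was lost without EV replicate 1 (0.37), without p53 R175H replicate 2 (0.52) or 3 (0.49), and with an unmoderated linear model (adjusted p = 0.0664), and the other Bak1 probe set gave 0.06 ± 0.09. No probe set of Bcl2l1, Mcl1, Bad, Bcl2l11 or Bbc3 was called between p53 R175H and EV cells.

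For these 5 genes the sizes that the arrays allow were as follows. Bad was at 10.47, 10.80 and 11.01 with p53 R175H and at 10.74, 10.91 and 10.65 with EV (1416582_a_at), with an interval of -0.31 to 0.29, and at 1416583_at the interval was -0.19 to 0.19. Both intervals end below the Bad differences between mt-CCs and fl-CCs, which have errors of their own. The test between the comparisons is given further below. Bcl2l1 was at 8.98, 9.49 and 9.46 with p53 R175H and at 9.17, 8.97 and 8.97 with EV (1426191_a_at), an interval of -0.03 to 0.57, and it was called higher, by 0.44, when p53 R175H replicate 1, the low array, was left out. The differences of the 6 Mcl1 probe sets ran between -0.02 and 0.23, and those of the 5 Bcl2l11 probe sets between 0.04 and 0.33. Bbc3 was at 6.49, 6.24 and 6.08 with p53 R175H and at 6.02, 6.13 and 6.41 with EV, overlapping arrays with an interval of -0.20 to 0.36.

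**Figure D2:**
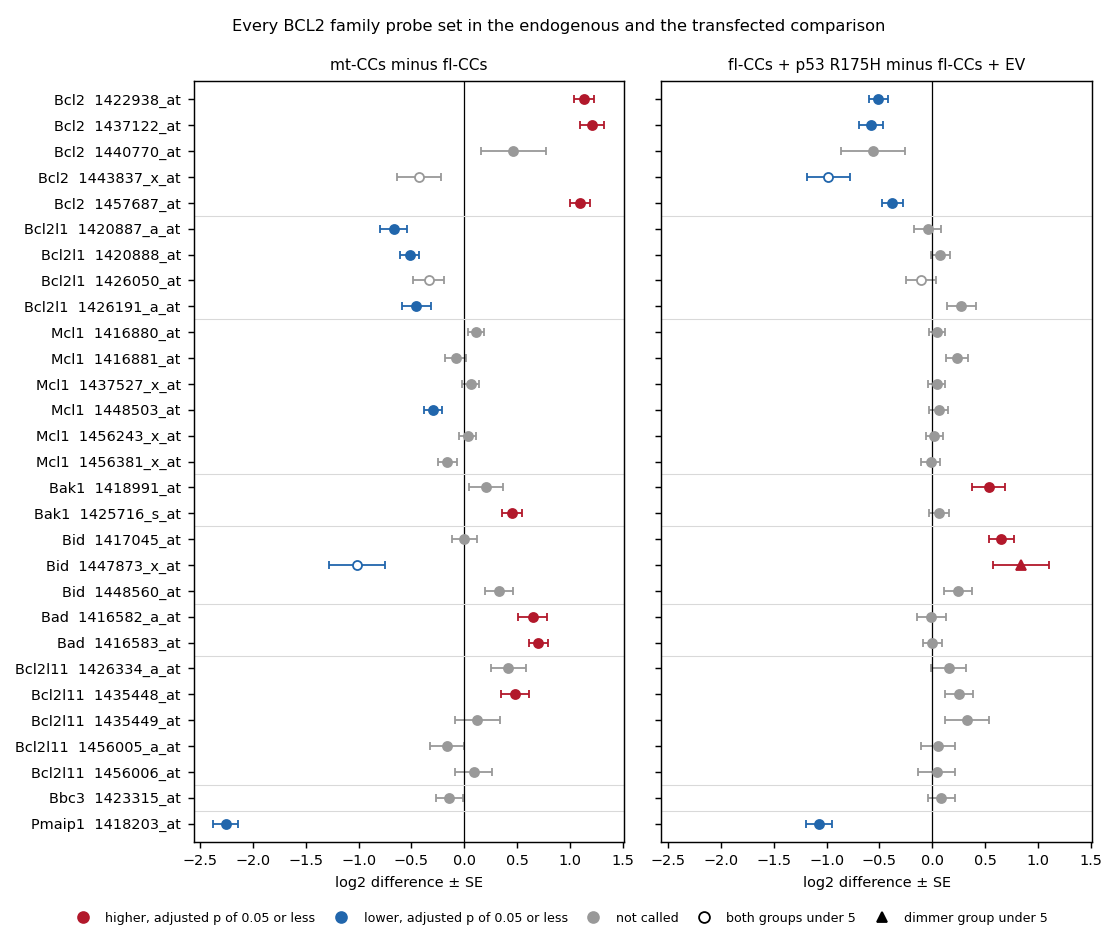
Log2 difference ± SE of all 29 BCL2 family probe sets between mt-CCs and fl-CCs (left) and between fl-CCs + p53 R175H and fl-CCs + EV (right), red where called higher, blue where called lower, grey where not called, open where both groups lay under 5 and a triangle where only the dimmer group did. Pmaip1 is at -2.26 and -1.07, while the 3 brightest Bcl2 probe sets are near 1.1 to 1.2 on the left and below 0 on the right.

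The 2 comparisons share no array, and the difference between them was called at 12 of the 29 probe sets, 6 in each direction (41.4%, beside 26.8% of all probe sets). For Bcl2 it was 1.64 ± 0.13 at the brightest probe set (adjusted p = 1.36e-06), for Bad 0.70 ± 0.13 at 1416583_at (adjusted p = 0.00116), and for Pmaip1 -1.19 ± 0.17 (adjusted p = 0.00021), since its fall in mt-CCs was the larger one. At the brightest Bad probe set (1416582_a_at) it was 0.65 ± 0.19 (adjusted p = 0.0256). That call was lost without any 1 of 4 arrays and with an unmoderated linear model. For Bcl2l1 it was -0.73 ± 0.19 at 1426191_a_at (adjusted p = 0.0144) and for Bid -0.65 ± 0.17 at 1417045_at (adjusted p = 0.0124).

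EV cells themselves differed from the fl-CCs they were made from at 5 of the 29 probe sets, 4 higher and 1 lower (17.2%, beside 12.1% of all probe sets), and without EV replicate 3 at 3. Bcl2 was higher with EV at the same 3 probe sets, by 0.45 ± 0.09 at the brightest (adjusted p = 0.00655), 0.63 ± 0.11 at 1437122_at and 0.63 ± 0.10 at 1457687_at. Pmaip1 was higher with EV by 0.52 ± 0.12 (adjusted p = 0.0138), a call lost without EV replicate 3 (0.49, adjusted p = 0.0518) and with only the arrays compared (adjusted p = 0.0587), and Bcl2l1 was lower at 1420888_at (-0.35 ± 0.09, adjusted p = 0.0295). This comparison shares the EV arrays with the one above and the fl-CC arrays with the first, so their values are only set side by side here. EV cells, unlike fl-CCs, were grown in G418.

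Set against fl-CCs directly, cells with p53 R175H differed at 1 of the 29 probe sets (3.45%, beside 15.0% of all probe sets), which was Pmaip1 (a difference of -0.55 ± 0.12, adjusted p = 0.00891). The Bcl2 level of p53 R175H cells differed from that of fl-CCs by -0.06 with an interval of -0.26 to 0.14. Without mt-CC replicate 1 or 3 or p53 R175H replicate 2, 2 probe sets were called. Against p53 R175H cells, mt-CCs differed at 12 probe sets, 7 higher and 5 lower (41.4%, beside 33.1% of all), and against EV cells at 15, 10 higher and 5 lower (51.7%, beside 33.0%). Among the lower calls against EV cells, Bcl2 at 1443837_x_at and Bid at 1447873_x_at lay under 5 in both groups. With centring on housekeeping genes the splits against p53 R175H and EV cells became 9 higher and 2 lower, and 12 higher and 3 lower. That centring moved the differences of all probe sets up by 0.14 and 0.15. The split of all probe sets under it is not given here, so the tilt is not particular to the family.

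Pmaip1, Bcl2 and Bad set mt-CCs apart from both transfected groups. For Pmaip1 the differences were -1.71 ± 0.12 against p53 R175H cells and -2.78 ± 0.12 against EV cells. For Bcl2 they were 1.19 ± 0.09 against p53 R175H cells and 0.68 ± 0.09 against EV cells at the brightest probe set, and for Bad 0.85 ± 0.14 and 0.84 ± 0.14 at 1416582_a_at. Bak1 at 1425716_s_at was higher in mt-CCs too (0.57 ± 0.09 against p53 R175H cells and 0.64 ± 0.09 against EV cells), and 2 Mcl1 probe sets were lower, 1448503_at (-0.38 and -0.32) and 1456381_x_at (-0.32 and -0.34). Bid was higher in mt-CCs than with EV at 1417045_at (0.40 ± 0.12) and 1448560_at (0.58 ± 0.14), the first call being lost without mt-CC replicate 2 (0.34) or EV replicate 2 or 3 (0.40 and 0.33). Bcl2l11 at 1435448_at was higher than with EV by 0.58 ± 0.13. Bcl2l1 at 1426191_a_at was lower than with p53 R175H by a difference of -0.43 ± 0.14, a call lost without any 1 of mt-CC replicates 2 and 3 and p53 R175H replicates 2 and 3 (-0.34 to -0.42), with only the arrays compared (adjusted p = 0.066), with an unmoderated linear model (adjusted p = 0.0572) and with centring on housekeeping genes (-0.29, adjusted p = 0.137). Bak1 at 1418991_at was higher than with EV by 0.48 ± 0.16, a call lost without mt-CC replicate 2 (0.41) or 3 (0.49) or EV replicate 1 (0.31), with only the arrays compared (adjusted p = 0.0558) and with an unmoderated linear model (adjusted p = 0.0706).

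Across the 4 groups Pmaip1 was highest in EV cells (10.50 ± 0.06), then in fl-CCs (9.98 ± 0.26), p53 R175H cells (9.43 ± 0.08) and mt-CCs (7.72 ± 0.09), and each neighbour in this order differed from the next. For Bcl2 the order was mt-CCs (12.28 ± 0.13), EV cells (11.60 ± 0.02), fl-CCs (11.15 ± 0.02) and p53 R175H cells (11.09 ± 0.12), with only the last pair not differing beyond its spread. Bad was highest in mt-CCs (11.61 ± 0.19), and its fl-CC, EV and p53 R175H levels (10.96 ± 0.01, 10.77 ± 0.13 and 10.76 ± 0.27) did not differ from neighbour to neighbour. For Bcl2l1, Mcl1, Bak1, Bid, Bcl2l11 and Bbc3 no neighbours in the order differed at the brightest probe set, and for Bid the step between EV cells (7.72 ± 0.15) and fl-CCs (8.12 ± 0.15) had an adjusted p of 0.0509 and was called when EV replicate 1 (-0.47 for EV minus fl-CCs) or p53 R175H replicate 1 (-0.40) was left out.

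**Figure D3:**
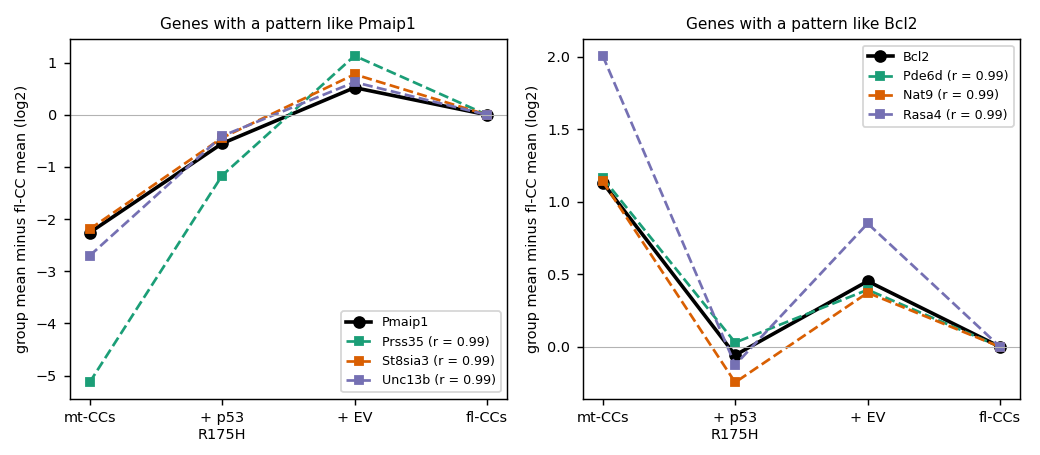
Group means of Pmaip1 (left) and Bcl2 (right) and of the 3 genes whose pattern over the 12 arrays was most like each, as log2 differences from the fl-CC mean, for mt-CCs, fl-CCs + p53 R175H, fl-CCs + EV and fl-CCs. Prss35 spans a wider range than Pmaip1, and Rasa4 a wider range than Bcl2, with the same order of groups.

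Genes with the most similar pattern were sought among 12381 genes by Pearson's r over the 12 arrays, for the members whose group means spanned at least 1. For Pmaip1 they were Prss35 (r = 0.995), St8sia3 (r = 0.992) and Unc13b (r = 0.991). Prss35 averaged 2.93 in mt-CCs, 6.90 with p53 R175H, 9.20 with EV and 8.06 in fl-CCs. For Bcl2 they were Pde6d (r = 0.988), Nat9 (r = 0.987) and Rasa4 (r = 0.986), and Rasa4 averaged 7.39 in mt-CCs, 5.26 with p53 R175H, 6.24 with EV and 5.39 in fl-CCs. The arrays of a group share a line, so these r values rest largely on the 4 group means and are given as a description.

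Relatives outside the 10 listed genes were examined by brightest probe set, 11 of 15 being measured. In mt-CCs 1 was higher and 4 were lower than in fl-CCs, where 18.3% of all genes were higher and 17.7% lower (median -0.29, beside -0.01 over all genes). Bok, a relative of Bax and Bak1, was at 8.68 ± 0.10 in mt-CCs, against 10.30 ± 0.11 in fl-CCs (-1.61 ± 0.09), and Bcl2l14 (-0.84) and the mitophagy gene Bnip3 (-0.79) were lower too. Bcl2l2, which encodes the inhibitor BCL-W, was at 9.31 ± 0.07 in mt-CCs, against 8.61 ± 0.13 in fl-CCs (0.70 ± 0.10). With p53 R175H, 2 relatives were higher and 2 lower than with EV, where 13.0% of all genes were higher and 12.1% lower. Bok (-0.99 ± 0.09) and Bnip3 (-1.03 ± 0.17) were again lower, while Bcl2l15 was at 10.15 ± 0.34 with p53 R175H against 8.31 ± 0.20 with EV (1.85 ± 0.20) and the BH3-only gene Bmf was higher by 1.00 ± 0.14.

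Downstream of the mitochondrion, 14 of 16 genes for the apoptosome, the caspases and the inhibitor of apoptosis proteins (IAPs) were measured. Between mt-CCs and fl-CCs 4 were higher and 4 lower (median -0.05, beside 18.3% of all genes higher and 17.7% lower), where Birc5, which encodes survivin (0.67), Birc2 (0.44) and Casp6 (0.33) were higher in mt-CCs and Aifm1 (-0.80), Birc6 (-0.62) and the cytochrome c gene Cycs (-0.44) were lower. With p53 R175H 8 were higher and 1 lower than with EV, beside 13.0% of all genes higher and 12.1% lower (median 0.39, and -0.01 over all genes). Xiap, the caspase inhibitor, was at 9.60 ± 0.10 with p53 R175H, against 8.90 ± 0.05 with EV (0.70 ± 0.10), Endog was higher by 0.60 ± 0.11, and the initiator Casp9 was lower (-0.41 ± 0.09). In the same list EV cells had 5 genes lower than fl-CCs and none higher, where 7.24% of all genes were lower and 7.84% higher (15.1% in all). Cells with p53 R175H, set against fl-CCs directly, had 3 genes of this list higher and 1 lower, beside 15.0% of all probe sets called in either direction. That share is of probe sets, and the share of all genes is not given for this comparison. The median of that comparison was 0.05, beside -0.01 over all genes.

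Of 9 measured genes of the death receptor arm, 2 were higher and 1 lower in mt-CCs, against fl-CCs, where 36.0% of all genes differed. Cflar, which blocks caspase-8, was at 10.51 ± 0.08 in mt-CCs, against 9.77 ± 0.15 in fl-CCs (0.74 ± 0.09), Casp8 was higher by 0.28 and the adaptor gene Fadd was lower (-0.50). With p53 R175H 1 was higher and 2 lower than with EV, where 25.1% of all genes differed. The receptor gene Fas was at 6.75 ± 0.27 with p53 R175H and under 5 in all EV arrays, so at least 1.75 higher, and Casp8 (-0.47) and the TRAIL receptor gene Tnfrsf10b (-0.41) were lower. Of 10 outer membrane partners and genes of mitochondrial fission and fusion, only the fusion gene Mfn1 differed in mt-CCs (-0.28 ± 0.07, beside 36.0% of all genes called), and 3 were higher with p53 R175H, against EV (13.0% of all genes were), among them Opa1 (0.35) and Dnm1l (0.34).

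Of 17 genes known to act on family members, 7 were higher and 3 lower in mt-CCs (median 0.13, beside 36.0% of all genes called), and 4 were higher and 4 lower with p53 R175H (median -0.07, beside 25.1% of all genes called). Ddit3, which encodes the stress factor CHOP, was at 10.21 ± 0.05 in mt-CCs, against 8.75 ± 0.49 in fl-CCs (1.45 ± 0.19), and at 8.22 ± 0.13 with p53 R175H, against 8.96 ± 0.06 with EV (-0.74 ± 0.19). Trib3 went the same ways (0.80 in mt-CCs and -0.68 with p53 R175H). The kinase gene Pim1, whose product phosphorylates Bad, was higher in mt-CCs by 0.91 ± 0.22, Map2k1, Atf4 and Foxo3 were lower there (-0.73, -0.46 and -0.33), and E2f1 (0.66) and the deubiquitinase gene Usp9x (0.59) were higher with p53 R175H.

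Targets of wild-type p53 outside the family moved in both directions in mt-CCs, with 6 of 15 higher and 7 lower (median -0.19), beside 18.3% of all genes higher and 17.7% lower. Perp, a membrane protein gene, was at 8.61 ± 0.06 in mt-CCs, against 11.88 ± 0.08 in fl-CCs (-3.27 ± 0.08), Trp53inp1 (-1.22) and Sesn2 (-1.06) were lower, and Phlda3 (1.59), Sesn1 (1.37) and Gadd45a (0.89) were higher. With p53 R175H 8 were lower and 1 higher than with EV, beside 12.1% of all genes lower and 13.0% higher (median -0.46, and -0.01 over all genes). Phlda3 was at 7.80 ± 0.10 with p53 R175H, against 9.41 ± 0.09 with EV (-1.61 ± 0.12), the cell cycle inhibitor gene Cdkn1a was lower (-1.17 ± 0.28), and Zmat3 was higher by 0.40 ± 0.12. In EV cells 4 of these targets were higher than in fl-CCs and none lower, beside 7.84% of all genes higher and 7.24% lower. Set against fl-CCs directly, cells with p53 R175H had 1 of these targets higher and 3 lower, beside 15.0% of all probe sets called in either direction. Here too the share is of probe sets and not of genes. The median of that comparison was -0.11, beside -0.01 over all genes.

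**Figure D4:**
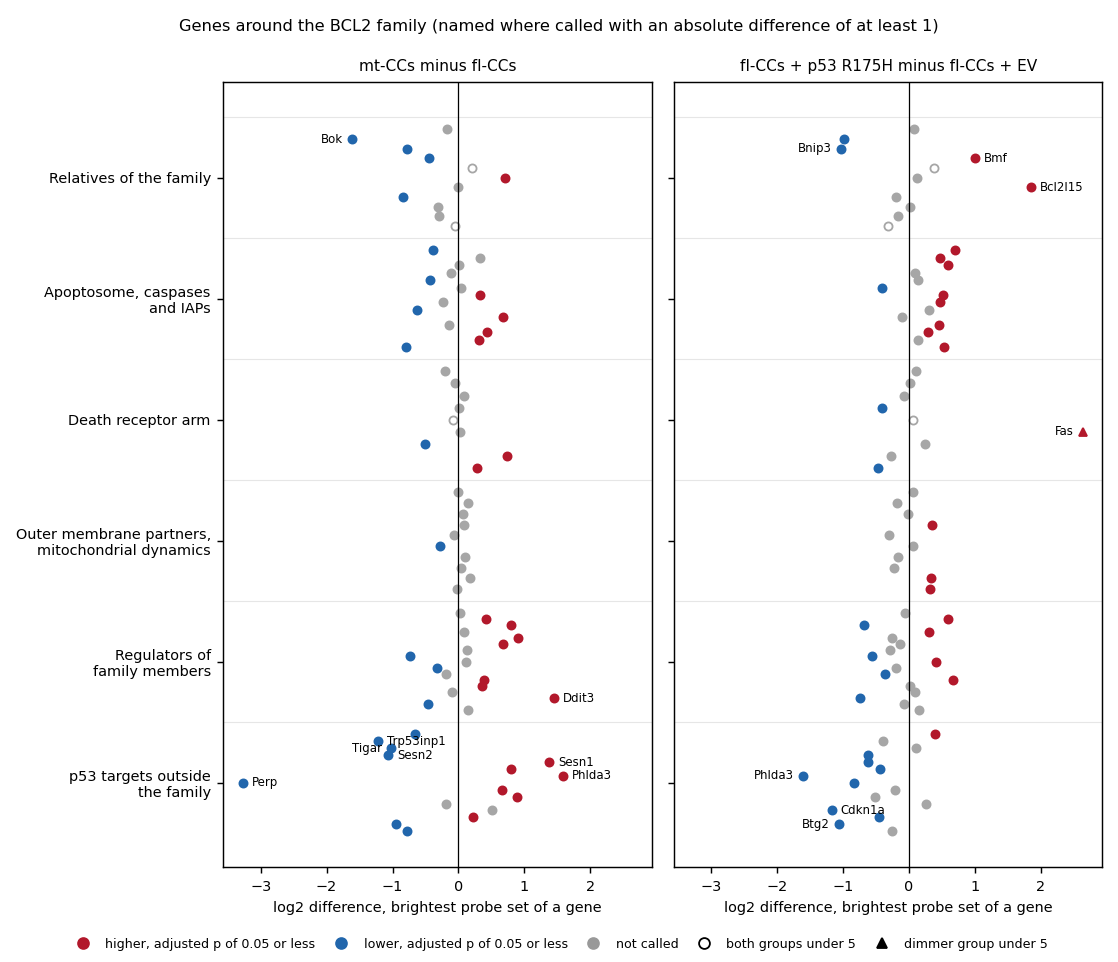
Log2 difference at the brightest probe set of each gene in 6 lists around the BCL2 family, between mt-CCs and fl-CCs (left) and between fl-CCs + p53 R175H and fl-CCs + EV (right), red where called higher, blue where called lower, grey where not called, open where both groups lay under 5 and a triangle where only the dimmer group did. Perp at -3.27 is the lowest point on the left. Fas is plotted highest on the right, but its EV arrays were all under 5, so its rise is at least 1.75, and Bcl2l15 is at 1.85.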

How the data were processed

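Biotin-labelled cDNA from biological triplicates was hybridized by the authors to Affymetrix mouse GeneChip arrays, and after quality checks in affy the probes were combined into probe set values by RMA, for which the sources used here give no version. What was deposited is thus on a log2 scale, with no missing entry, and its precision is limited by the number of arrays. Without the 64 AFFX controls, 45037 probe sets were tested with limma 3.58.1 (lmFit, eBayes) in R 4.3.3, with 4 group means over all 12 arrays, 7 comparisons and Benjamini-Hochberg adjustment over all probe sets of a comparison, the step-up threshold of 0.05 being that of the methods, which name Partek. The methods' rule of taking a gene's probe set with the smallest adjusted p is given beside the brightest one. The platform annotation gave 1 symbol to 34958 probe sets, several to 932 and none to 9160. Members and gene lists were chosen with earlier results of these data known. By rule, the text names every measured member, and from each list the 3 largest called rises and falls in mt-CCs minus fl-CCs and the 2 and 2 in p53 R175H minus EV, fewer where fewer were called. Where both groups lay under 5 no difference is given, and where only the dimmer did, the brighter mean less 5 is given as a lower bound. Each p-value reflects the spread among cultures of 1 line. The fit was tested on simulated data. Promoter sequences are RefSeq's (GRCm38.p6). Python 3.11.15 and pandas 2.3.3 were used for the summaries. Alternatives were 13 changes of model, filter, scaling, call or probe set, the replicate number as a block, and each array left out.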

Additional observations from a re-analysis of the deposited data

Results flagged for a closer look

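The difference between mt-CCs and fl-CCs was set against that between p53 R175H and EV cells by a test of the difference between them, and 12 of the 29 probe sets passed it. For Bcl2 it was 1.64 at 1422938_at (adjusted p = 1.36e-06, limma), 1.79 at 1437122_at (adjusted p = 5.05e-06) and 1.47 at 1457687_at (adjusted p = 6.41e-06), the first difference being above 0 and the second below 0 at each. For Bcl2l1 it was -0.63 at 1420887_a_at (adjusted p = 0.0192), -0.59 at 1420888_at (adjusted p = 0.00454) and -0.73 at 1426191_a_at (adjusted p = 0.0144), for Bad 0.65 at 1416582_a_at (adjusted p = 0.0256) and 0.70 at 1416583_at (adjusted p = 0.00116), and for Bak1 0.39 at 1425716_s_at (adjusted p = 0.0485). For Bid it was -0.65 at 1417045_at (adjusted p = 0.0124) and -1.86 at 1447873_x_at (adjusted p = 0.0026), where 9 of the 12 arrays lay under 5, so that the size is not a measured difference. For Pmaip1 it was -1.19 (adjusted p = 0.00021), both differences being below 0.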

How the results depend on the processing

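Of the members' differences at the brightest probe set, 614 of the values under the alternatives that keep all arrays kept their direction and side of the threshold, as did 704 with 1 array left out. Of the rest, 9 and 22 were no longer called, 11 and 8 became called, and 20 and 22 changed sign. Leaving out each array in turn gave 11 to 14 called probe sets for mt-CCs minus fl-CCs, 5 to 8 for p53 R175H minus EV (5 without EV replicate 1), 3 to 6 for EV minus fl-CCs (3 without EV replicate 3), 1 to 2 for p53 R175H minus fl-CCs, 9 to 14 for mt-CCs minus p53 R175H, 13 to 19 for mt-CCs minus EV and 10 to 13 for the difference of differences. In the same order of comparisons, a required absolute difference of 1 left 5, 1, 0, 0, 4, 2 and 5 calls, genes by smallest adjusted p gave 8, 4, 3, 1, 7, 7 and 6, and genes by brightest probe set gave 4, 4, 2, 1, 4, 5 and 5. Beside these, 43.3% and 30.4% of all genes were called by smallest adjusted p in mt-CCs minus fl-CCs and p53 R175H minus EV. By brightest probe set 36.0% and 25.1% were, and 15.1% in EV minus fl-CCs. No share over all features is given for the other counts. The calls at a required difference of 1 included probe sets under 5 in both groups. These were Bid at 1447873_x_at (mt-CCs minus fl-CCs) and Bcl2 at 1443837_x_at (mt-CCs minus EV). For p53 R175H minus fl-CCs, 2 were called with only the arrays compared or with array weights, and 3 with an intensity trend, with a mean of at least 5 required, or with centring on housekeeping probe sets. That centring moved the differences by 0.09 in mt-CCs minus fl-CCs, 0.01 in p53 R175H minus EV and -0.06 in EV minus fl-CCs, by 0.14 in mt-CCs minus p53 R175H and by 0.15 in mt-CCs minus EV. With the replicate block 14, 7, 6, 1, 11, 16 and 11 were called, in the same order. Deviations of same-numbered arrays correlated at -0.09 to 0.06 and those of differently numbered arrays at -0.11 to 0.09. No effect shared by replicate number was seen, but such values cannot tell whether the cultures were paired. The call of Bad in the difference of differences at 1416582_a_at was lost with an unmoderated linear model (adjusted p = 0.0503) and without mt-CC replicate 3, fl-CC replicate 3, EV replicate 2 or p53 R175H replicate 1 (0.51 to 0.65). The following changed sign, and the cause was not tested. With the probe set of smallest adjusted p, mt-CCs minus fl-CCs was -0.30 for Mcl1, -1.02 for Bid (under 5 in both) and 0.48 for Bcl2l11, EV minus fl-CCs was -0.23 for Mcl1 and -0.42 for Bcl2l11, p53 R175H minus fl-CCs was 0.25 for Bcl2, mt-CCs minus p53 R175H was 0.57 for Bak1 and 0.33 for Bcl2l11, mt-CCs minus EV was 0.58 for Bcl2l11, and the difference of differences was -0.36 for Mcl1, 0.39 for Bak1 and 0.23 for Bcl2l11. With array weights, Bad was 0.0040 in p53 R175H minus EV, Bbc3 -0.0195 in p53 R175H minus fl-CCs and Mcl1 -0.0177 in the difference of differences. With housekeeping centring, Bbc3 was -0.0233 in p53 R175H minus fl-CCs and 0.0604 in mt-CCs minus EV, Mcl1 0.0497 in mt-CCs minus p53 R175H and 0.0986 in mt-CCs minus EV, and Bak1 0.0813 in mt-CCs minus p53 R175H. With 1 array left out, values that crossed 0 ranged, in mt-CCs minus fl-CCs, over -0.0544 to 0.0887 for Bid, in p53 R175H minus EV over -0.13 to 0.14 for Bad, -0.0219 to 0.17 for Bcl2l11 and -0.0246 to 0.20 for Bbc3, in EV minus fl-CCs over -0.0256 to 0.30 for Bcl2l11 and -0.17 to 0.0297 for Bbc3, in p53 R175H minus fl-CCs over -0.12 to 0.0054 for Bcl2, -0.12 to 0.14 for Bcl2l1 and -0.0793 to 0.12 for Bbc3, in mt-CCs minus EV over -0.0905 to 0.0067 for Mcl1 and -0.17 to 0.0265 for Bbc3, and in the difference of differences over -0.0236 to 0.0736 for Mcl1. Probe sets under 5 on every array, at Bcl2 (1443837_x_at) and Bcl2l1 (1426050_at), are too dim for a difference, and Bid at 1447873_x_at was above 5 only in the p53 R175H arrays, so it gives a bound at most.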
